A study of Homo sapiens with 15 samples.

Results

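Immediate early and short-lived regulator mRNAs were measured in cytosolic extract and in pellets taken after a 2 h reaction. The 10 genes were listed by name: FOS, FOSL1, JUN, JUNB, ATF3, EGR1, IER2, IER3, HES1 and ID1. A gene was kept where it had 10 counts or more in 2 or more of the 3 replicates of every group, and all 10 passed, among 16612 genes tested of 57500 in the files. In the single libraries the 10 genes had 216 to 19375 counts each.

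All extracts came from U2OS, a human osteosarcoma cell line that the labels give as wild type and whose condensates the study's methods name after YFP-G3BP1. Input extract (3 libraries) was not pelleted, and the sources used here do not say whether it was incubated. Mock extract (untreated), extract with 250 nM dsRNA, extract with 2 µg/ml silvestrol, an inhibitor of the translation initiation helicase eIF4A, and extract with 1% PEG, a molecular crowder, were each kept for 2 h at 37 °C and then pelleted, with 3 biological replicates per group. Poly(A) RNA of the pellet, or of the input, was sequenced. Mock therefore differs from input by the pelleting and, if input was not incubated, by the incubation too. Change over the reaction and pelleting cannot be told apart, since no pellet was taken at the start and no group is stated to be unpelleted extract after 2 h. The dsRNA, silvestrol and PEG pellets shared both steps with mock.

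Immediate early genes are transcribed within minutes of a stimulus without new protein being made first, and most encode transcription factors or regulators of signalling. Their mRNAs are usually degraded soon after, often through AU-rich elements in the 3′ UTR, whose core is the pentamer ATTTA and which proteins such as ZFP36 bind to start removal of the poly(A) tail. HES1 and ID1 are not immediate early genes in the strict sense, but encode short-lived repressors of differentiation whose mRNAs turn over quickly. A cytosolic extract lacks intact nuclei, so it is not a usual source of new transcripts.

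The libraries held 15341973 to 46939993 counts, and the PEG libraries were the smallest, with 15341973 to 25675182. Of 8 mesenchymal and osteoblast-lineage markers, 6 were above 10 counts in every library, with summed levels from 2470 to 3700 CPM (counts scaled to a common library size after TMM normalisation), while COL1A2 and TWIST1 stayed at 10 counts or fewer. Of 7 hepatocyte genes, APOB and FGB were at 0 in all 15 libraries, ALB, TTR, AFP and APOA1 had at most 21 counts, and SERPINA1 had 206 to 1129 counts, with its highest mean with PEG (29.3 CPM, against 13.7 in mock). The epithelial marker EPCAM had 166 to 498 counts, also highest with PEG (12.8 CPM, against 7.67 in mock), and CDH1 at most 50. The haematopoietic marker PTPRC had at most 19 counts. The part of these genes in the results was not tested. Libraries with the same replicate number resembled each other across groups, so a fit that includes the replicate number as a term (the replicate block) was also run. Its result is given wherever it changed a call of the main fits, which have no offset for GC content or length. All p-values measure the spread between replicates of 1 cell line.

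The 3′ UTRs of the 10 mRNAs, read from GENCODE release 29 transcripts, had lengths from 421 bases (ID1) to 1287 bases (JUN). The pentamer ATTTA was searched on the transcript strand, overlaps allowed, and was found in 8 of the 10, the exceptions being HES1 and IER2. It was also present in 68.9% of 13330 tested coding genes, and in 65.3% of the 4326 whose 3′ UTR had 400 to 1300 bases, the range around those of the 10 mRNAs, so most other genes hold it too. IER3 held the most, with 6 copies, followed by FOS with 5. The longer motif TTATTTATT was found only in FOS, against 8.48% of the tested coding genes. The windows printed here are the 30 bases around ATTTA (in capitals) in 2 mRNAs that were higher in the mock, dsRNA and silvestrol pellets than in input (JUN and JUNB), 2 that were lower (FOSL1 and ID1) and the 2 with the most copies (FOS and IER3). Whether the motif is related to the fold changes was not tested. The windows lie in GRCh38 at chr1:58781336-58781365 (minus strand, JUN), chr19:12793059-12793088 (plus strand, JUNB), chr11:65892272-65892301 (minus strand, FOSL1), chr20:31606486-31606515 (plus strand, ID1), chr14:75282057-75282086 (plus strand, FOS) and chr6:30743648-30743677 (minus strand, IER3), and are written 5′ to 3′ along the mRNA.
JUN: ttccagaaaggatATTTAagaaaatacaat
JUNB: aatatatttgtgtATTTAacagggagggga
FOSL1: gagggcagctgctATTTAttttcctaaaga
ID1: tattaaacaaataATTTAgatggtggtaaa
FOS: ttgtgtttttaATTTATTTAttaagatgga
IER3: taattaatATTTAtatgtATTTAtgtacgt

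The 10 mRNAs did not move together. In mock pellets against input, JUN, JUNB and IER2 were higher and ID1, FOSL1 and HES1 were lower, while FOS, EGR1, IER3 and ATF3 did not pass the test (edgeR quasi-likelihood test, Benjamini-Hochberg adjusted p under 0.05 over all 16612 genes). That is 3 higher and 3 lower of 10, beside a background of 17.6% of all tested genes called higher and 15.8% called lower. The median log2 fold change of the 10 was -0.04, and that of all tested genes was 0.00. In dsRNA pellets the same 3 mRNAs were higher and the same 3 lower, with backgrounds of 21.1% and 19.6%. In silvestrol pellets the same 3 were higher and 2 were lower, ID1 and FOSL1, with backgrounds of 19.4% and 18.1%. In PEG pellets 5 were higher (IER3, ID1, HES1, JUNB and IER2) and 1 was lower (EGR1), with backgrounds of 25.5% and 25.9%. These 4 comparisons use the same 3 input libraries, so their likeness is not independent. Each of these counts is less than 3 genes away from what the background share would give for 10 genes.

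**Figure D1:**
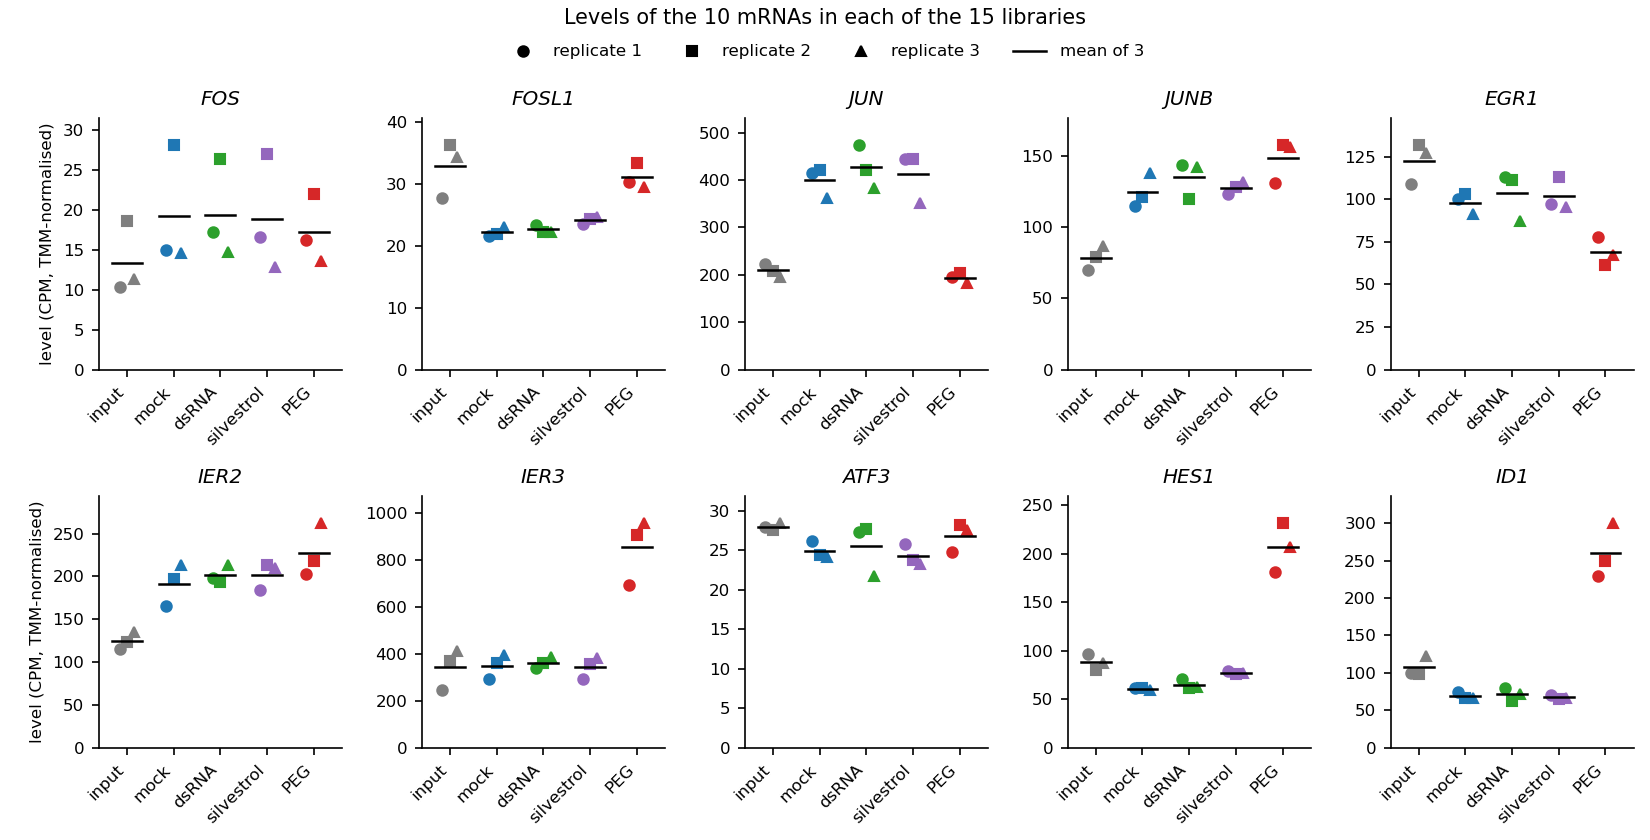
Level of each of the 10 mRNAs in CPM after TMM normalisation (vertical axes start at 0 and differ between panels) in the 5 groups; symbols are single libraries by replicate number and lines are means of 3. JUN sits at 352 to 475 CPM in mock, dsRNA and silvestrol pellets and at 183 to 223 in input and PEG, whereas IER3, HES1 and ID1 are highest with PEG.

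Per kilobase of exon, IER3 was the most abundant of the 10 in every group, at 252 ± 63.7 CPM per kb in input (SD, n = 3), and FOS had the lowest mean in every group, at 4.13 ± 1.39 CPM per kb in input. In input the order below IER3 was ID1 (87.1 ± 11.3), JUN (59.1 ± 3.86), then JUNB, HES1, IER2 and EGR1, which lay between 39.0 and 43.2 CPM per kb with overlapping replicates, then FOSL1 (17.4 ± 2.39) and ATF3 (6.94 ± 0.124). In mock pellets JUN stood second at 113 ± 9.23 CPM per kb, and JUNB, IER2 and ID1 overlapped as neighbours below it. With PEG the next below IER3 were ID1 (211 ± 29.9) and HES1 (100.0 ± 12.4). ATF3 and FOS overlapped in all 4 pellets and did not overlap in input.

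JUN and JUNB encode the Jun partners of the AP-1 transcription factor, and both were higher in the mock, dsRNA and silvestrol pellets than in input. JUN (chr1:58780788-58784327, a transcript of 1 exon) was at 223, 209 and 196 CPM in the 3 input libraries and at 414, 422 and 362 CPM in mock. In dsRNA pellets JUN was at 475, 421 and 384 CPM, in silvestrol pellets at 444, 444 and 352 CPM, and in PEG pellets at 195, 203 and 183 CPM. Every mock, dsRNA and silvestrol library was above every input library, while PEG and input overlapped. The log2 fold change of JUN against input was 0.97 (SE 0.119, adjusted p = 0.00358, edgeR) in mock, a 1.95-fold difference and the largest of the 10 in either direction. With dsRNA it was 1.07 (SE 0.133, adjusted p = 0.00244, edgeR) and with silvestrol 1.01 (SE 0.141, adjusted p = 0.0027, edgeR). With PEG it was -0.07, with a 95% confidence interval from -0.35 to 0.21 (adjusted p = 0.659, edgeR).

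JUNB (chr19:12791496-12793315, also 1 exon) was at 70.1, 79.2 and 86.6 CPM in input and at 115, 121 and 138 CPM in mock. With dsRNA it was at 144, 120 and 142 CPM, with silvestrol at 123, 128 and 132 CPM and with PEG at 131, 158 and 156 CPM, the highest mean of the 5 groups. All 12 pellet libraries lay above the 3 input libraries. Against input JUNB had a log2 fold change of 0.70 in mock (SE 0.126, adjusted p = 0.00715, edgeR), 0.83 with dsRNA (SE 0.134, adjusted p = 0.00347), 0.73 with silvestrol (SE 0.119, adjusted p = 0.00375) and 0.96 with PEG (SE 0.126, adjusted p = 0.000546). JUNB exons share 259 bases with HOOK2 on the opposite strand, 14.2% of the JUNB exon length, and the strand setting of the counting is not given in the sources used here, so reads of that stretch cannot be assigned. HOOK2 had 359 to 3133 counts, which was 18.9% to 56.7% of the JUNB counts. JUNB has the highest GC content of the 10 genes (64.9%, against a median of 49.5% for all tested genes). With an offset for GC content per library its log2 fold change was 0.21 in mock, 0.26 with dsRNA and 0.19 with silvestrol, and none of these 3 passed the test. With the replicate block added to the GC offset, mock (adjusted p = 0.0143, edgeR) and dsRNA (adjusted p = 0.00594) passed and silvestrol (adjusted p = 0.0549) did not. With an offset for GC content and length the values were 0.41, 0.48 and 0.41, and all 3 passed.

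FOS and FOSL1 encode Fos-family partners of AP-1. FOS (chr14:75278774-75282230) was at 10.3, 18.6 and 11.3 CPM in input replicates 1, 2 and 3. In mock it was at 15, 28.2 and 14.6 CPM, with dsRNA at 17.2, 26.4 and 14.7 CPM, with silvestrol at 16.6, 27.0 and 12.9 CPM and with PEG at 16.2, 22.0 and 13.6 CPM. Replicate 2 was the highest in each of the 5 groups, and the coefficient of variation within a group reached 40.2%. Because of this spread the pellet and input values overlapped, and the log2 fold changes of 0.55 in mock (adjusted p = 0.217, edgeR), 0.57 with dsRNA (adjusted p = 0.143), 0.52 with silvestrol (adjusted p = 0.229) and 0.41 with PEG (adjusted p = 0.193) did not pass the test. Each pellet library was above the input library of the same number. With the replicate block FOS was called higher in all 4 comparisons, at adjusted p = 6e-05, 0.00176, 0.00277 and 0.0233 in that order (edgeR). Without input replicate 2, the FOS log2 fold change rose to 0.87 with dsRNA and 0.71 with PEG, and both then passed without the block. Without replicate 2 of the pellet, it was 0.18 in mock, 0.29 with dsRNA, 0.17 with silvestrol and 0.15 with PEG.

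FOSL1 (chr11:65892049-65900573) fell where JUN rose. It was at 27.8, 36.4 and 34.4 CPM in input, at 21.6, 22.0 and 23.1 CPM in mock, at 23.4, 22.3 and 22.3 CPM with dsRNA and at 23.5, 24.3 and 24.7 CPM with silvestrol. All of these pellets lay below all of the inputs. With PEG it was at 30.4, 33.4 and 29.6 CPM, within the range of input. FOSL1 had log2 fold changes of -0.53 in mock (SE 0.128, adjusted p = 0.0187, edgeR), -0.50 with dsRNA (SE 0.132, adjusted p = 0.0191), -0.41 with silvestrol (SE 0.129, adjusted p = 0.0373) and -0.03 with PEG (95% confidence interval from -0.32 to 0.26). The size of these differences changed little when single libraries were left out, but the calls did. The mock call was lost without input replicate 2 or 3 or mock replicate 2 or 3 (-0.48 to -0.56), the dsRNA call without input replicate 2 or 3 or dsRNA replicate 2 or 3 (-0.44 to -0.48), and the silvestrol call without input replicate 2 or 3 or any silvestrol replicate (-0.37 to -0.43). With library size alone in place of TMM, the silvestrol value was -0.37 and did not pass (adjusted p = 0.0772, edgeR). With the GC offset the FOSL1 falls were larger, at -0.83, -0.86 and -0.75.

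ATF3 (chr1:212565334-212620777), a stress-induced transcription factor that pairs with Jun proteins, passed the test in none of the 4 comparisons. Its 3 input libraries were at 28.0, 27.5 and 28.5 CPM, and all 12 pellets lay between 21.7 and 28.2 CPM. The log2 fold changes against input were -0.14 in mock (95% confidence interval from -0.37 to 0.09), -0.09 with dsRNA (from -0.39 to 0.21), -0.18 with silvestrol (from -0.42 to 0.06) and -0.02 with PEG (from -0.28 to 0.25). ATF3 holds 3 copies of ATTTA.

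EGR1 (chr5:138465490-138469315), a zinc finger transcription factor of the first wave of growth-factor responses, was lower with PEG. It was at 109, 132 and 127 CPM in input and at 77.9, 61.2 and 67.4 CPM with PEG, without overlap, a log2 fold change of -0.78 (SE 0.131, adjusted p = 0.00148, edgeR). In mock it was at 99.9, 103 and 91.0 CPM, all below input, with a log2 fold change of -0.29 that missed the threshold (adjusted p = 0.0972, edgeR) and passed it with the replicate block (adjusted p = 0.00793). It also passed without input replicate 1, at -0.39, and with DESeq2 (-0.30, adjusted p = 0.0459). With the GC offset it passed at -0.39, without the block (adjusted p = 0.0248, edgeR) and with it (adjusted p = 0.000279). In the fit of all 5 groups with the block it passed at -0.33 (adjusted p = 0.0174, edgeR). In all, 6 of 17 alternatives called EGR1 lower in mock. With dsRNA (113, 111 and 86.9 CPM, -0.20) and silvestrol (97.0, 113 and 95.4 CPM, -0.24) the groups overlapped and neither difference passed, nor did it with the block in the 6-library fit. Among the other fits, silvestrol passed with the GC offset (-0.36, adjusted p = 0.0474, edgeR) and in the fit of all 5 groups with the block (-0.27, adjusted p = 0.0409). Both passed with the block and the GC offset, at -0.35 with dsRNA (adjusted p = 0.0038) and -0.36 with silvestrol (adjusted p = 0.00276).

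IER2 and IER3 are immediate early response genes without a shared protein family: IER2 encodes a nuclear regulator of transcription and IER3 a regulator of cell survival. IER2 (chr19:13150415-13154908) was at 115, 124 and 135 CPM in input and at 165, 197 and 213 CPM in mock. With dsRNA it was at 198, 194 and 213 CPM, with silvestrol at 184, 213 and 210 CPM and with PEG at 203, 218 and 263 CPM. All 12 pellet libraries were above all inputs. Its log2 fold change was 0.66 in mock (SE 0.132, adjusted p = 0.0102, edgeR), 0.74 with dsRNA (SE 0.118, adjusted p = 0.00337), 0.73 with silvestrol (SE 0.122, adjusted p = 0.00404) and 0.92 with PEG (SE 0.132, adjusted p = 0.000796). Its GC content was 61.7%, and with the GC offset its log2 fold change was 0.28 in mock and 0.31 with silvestrol, neither of which passed, and 0.29 with dsRNA, which did. All 3 passed with the replicate block added to the GC offset, and also with the GC and length offset (0.39, 0.42 and 0.41 in the same order).

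IER3 (chr6:30743199-30744554) did not differ detectably between input and the 3 pellets without PEG, and was higher with PEG. Its input libraries were at 246, 368 and 413 CPM, its mock libraries at 292, 359 and 396 CPM, its dsRNA libraries at 341, 359 and 388 CPM and its silvestrol libraries at 292, 357 and 382 CPM. Its PEG libraries were at 693, 908 and 959 CPM, above all the others. Replicate 1 was the lowest and replicate 3 the highest in all 5 groups. The log2 fold change against input was 0.06 in mock (95% confidence interval from -0.42 to 0.55), 0.12 with dsRNA (from -0.32 to 0.57) and 0.04 with silvestrol (from -0.44 to 0.52). With PEG it was 1.37 (SE 0.201, adjusted p = 0.000862, edgeR), 2.59-fold. Of the 10 mRNAs IER3 had the most ATTTA copies and the log2 fold change of smallest size in mock, although the interval there admits a change of up to 0.55. Whether copy number and fold change are related was not tested. An antisense gene, IER3-AS1, shares 359 bases of IER3 exon and had at most 0.389% of the IER3 counts.

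**Figure D2:**
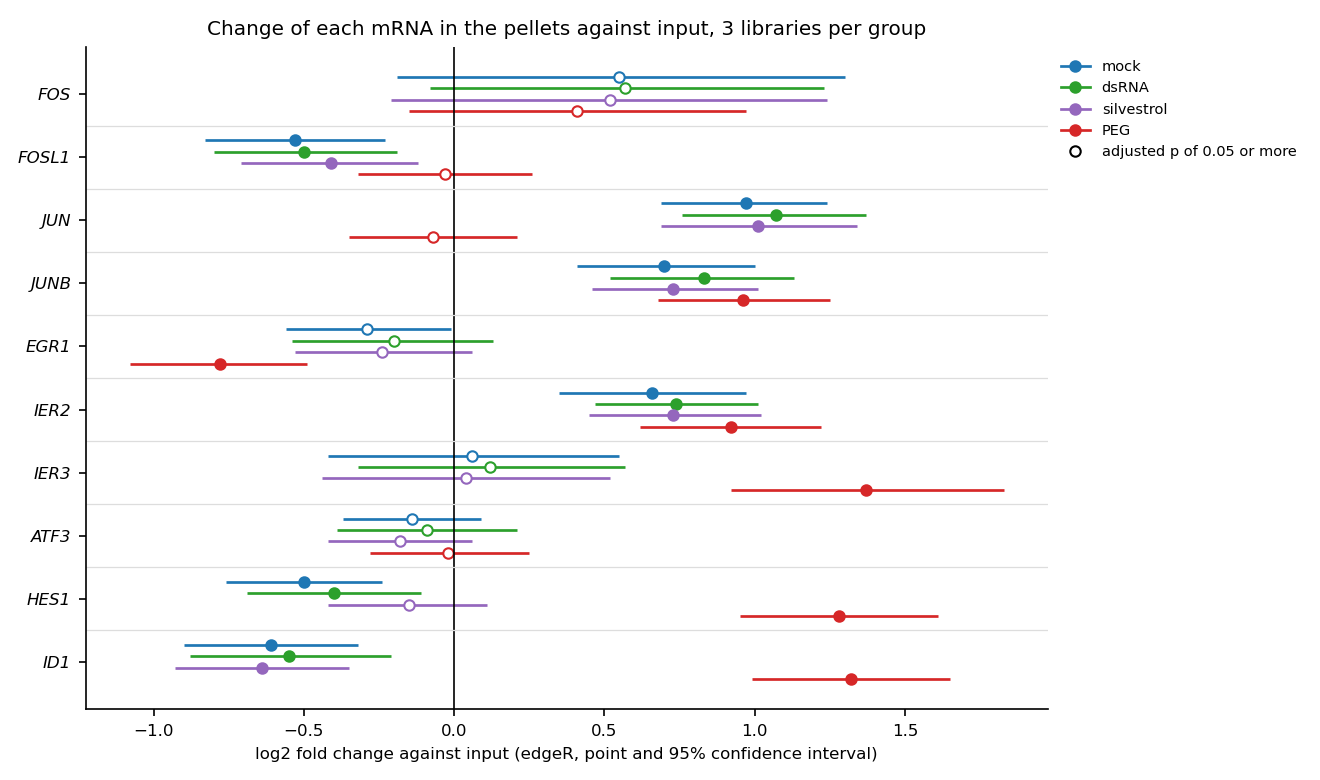
Log2 fold change against input for each mRNA (horizontal axis; edgeR point estimate and 95% confidence interval, 3 libraries per group) in mock, dsRNA, silvestrol and PEG pellets; filled points passed an adjusted p of 0.05. Mock, dsRNA and silvestrol lie close together for each mRNA except HES1, which is at -0.50, -0.40 and -0.15, whereas PEG departs from mock for FOSL1, JUN, EGR1, IER3, HES1 and ID1.

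HES1 and ID1 encode basic helix-loop-helix or related repressors: HES1 is a Notch target that represses transcription, and ID1 lacks a DNA-binding region and holds partner proteins off DNA. Both fell in mock and rose with PEG. HES1 (chr3:194136145-194138732) was at 97.0, 79.5 and 87.2 CPM in input, at 61.2, 61.2 and 59.5 CPM in mock and at 71.1, 61.3 and 62.0 CPM with dsRNA. With silvestrol it was at 78.8, 76.4 and 76.7 CPM and with PEG at 181, 232 and 207 CPM. The log2 fold change was -0.50 in mock (SE 0.11, adjusted p = 0.0135, edgeR), -0.40 with dsRNA (SE 0.126, adjusted p = 0.0371), -0.15 with silvestrol (adjusted p = 0.323) and 1.28 with PEG (SE 0.146, adjusted p = 0.000354). The mock call was lost without mock replicate 2 (-0.51) or 3 (-0.49), and the dsRNA call without input replicate 3 (-0.43), dsRNA replicate 2 (-0.36) or dsRNA replicate 3 (-0.37). With an offset for GC content and length, HES1 was at -0.24 in mock and -0.12 with dsRNA, and neither passed. With the GC offset alone the dsRNA value was -0.32 and did not pass (adjusted p = 0.053, edgeR). It passed once the replicate block was added to that offset (adjusted p = 0.00175, edgeR).

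ID1 (chr20:31605283-31606515), the shortest of the 10 with 1233 bases of exon, was at 99.9, 98.9 and 123 CPM in input and at 73.9, 66.0 and 65.8 CPM in mock. With dsRNA it was at 79.8, 62.2 and 72.3 CPM, with silvestrol at 70.5, 65.1 and 66.7 CPM and with PEG at 229, 249 and 301 CPM. No group of pellets overlapped with input, 3 groups lying below it and PEG above it. ID1 had log2 fold changes of -0.61 in mock (SE 0.126, adjusted p = 0.0107, edgeR), -0.55 with dsRNA (SE 0.145, adjusted p = 0.0189), -0.64 with silvestrol (SE 0.125, adjusted p = 0.00664) and 1.32 with PEG (SE 0.147, adjusted p = 0.000329). The mock call was lost without mock replicate 3 (-0.58), and the dsRNA call without input replicate 3 (-0.46), dsRNA replicate 2 (-0.46) or dsRNA replicate 3 (-0.56).

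Once the block was included, 8 of the 10 mRNAs passed in mock against input, 7 with dsRNA, 6 with silvestrol and 7 with PEG, beside backgrounds of 62.6%, 60.1%, 59.4% and 55.9% of all tested genes. The added calls were those of FOS in all 4 comparisons and of EGR1 in mock, and no call was lost.

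The comparisons between pellets share the steps of incubation and pelleting, and so bear on what dsRNA or silvestrol changed in the pelleted RNA after 2 h. In these groups only the pellet was sequenced. A change in the amount of an mRNA and a change in the share of it that pelleted cannot be told apart. The paper used DMSO as the vehicle control for silvestrol elsewhere, but no DMSO pellet is among the groups. Effects of silvestrol and of its vehicle therefore cannot be told apart here. Of the 10 mRNAs, 0 were called in dsRNA against mock, in silvestrol against mock or in dsRNA against silvestrol, and the background was 0.0% of all tested genes in each (edgeR). At an unadjusted p under 0.05 there were 0, 1 and 1 of the 10, and 374, 35 and 330 of all genes. DESeq2 called 64, 0 and 68 genes, with none of the 10 among them. Leaving HES1 aside, the log2 fold changes lay between 0.01 and 0.12 for dsRNA against mock, between -0.04 and 0.12 for silvestrol against mock and between -0.09 and 0.09 for dsRNA against silvestrol. Their 95% confidence intervals reached from -0.87 to 0.83 over the 3 comparisons, the widest being those of FOS. With the replicate block the intervals of these 9 mRNAs lay within -0.22 to 0.25, so that changes beyond that size lay outside them.

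HES1 was the exception. Its 3 silvestrol libraries (76.4 to 78.8 CPM) lay above its 3 mock libraries (59.5 to 61.2 CPM) and above its 3 dsRNA libraries (61.3 to 71.1 CPM), without overlap. The log2 fold change of silvestrol against mock was 0.35 (SE 0.0781, 95% confidence interval from 0.17 to 0.53, adjusted p = 1.0, edgeR). With the replicate block it was also 0.35 and passed the test (adjusted p = 0.0202, edgeR), as 1 of 2 genes, or 0.012% of those tested. For dsRNA against silvestrol it was -0.25 (adjusted p = 1.0, edgeR), which passed with the block (adjusted p = 0.00484) beside a background of 2.73%. Neither HES1 difference was called in the fit of all 5 groups with the block (adjusted p = 1.0 for silvestrol against mock and 0.794 for dsRNA against silvestrol, edgeR). Each was called in 2 of 17 alternatives, the block and the block with the GC offset, and with none of the 6 libraries left out. For dsRNA against mock the block called none of the 10, with a background of 2.81%. This HES1 difference was already known from these libraries when the gene was listed, so it is given as a description.

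PEG pellets differed from mock pellets in 7 of the 10 mRNAs. ID1, HES1, IER3, FOSL1 and JUNB were higher, JUNB with TMM but not with library size alone, and JUN and EGR1 were lower, beside backgrounds of 31.3% higher and 32.2% lower. ID1 had the largest difference, a log2 fold change of 1.99 (SE 0.14, adjusted p = 6.12e-06, edgeR) or 3.98-fold, followed by HES1 with 1.84 (SE 0.128, adjusted p = 5.97e-06) and IER3 with 1.37 (SE 0.166, adjusted p = 7.23e-05). JUN was lower by a log2 fold change of -0.97 (SE 0.125, adjusted p = 0.000103), without overlap. FOSL1 was higher by 0.56 (SE 0.114, adjusted p = 0.00183). JUNB, at 0.32 (adjusted p = 0.042), overlapped between the groups and lost its call without mock replicate 2 (0.30), PEG replicate 2 (0.31) or PEG replicate 3 (0.32). EGR1, at -0.44 (adjusted p = 0.0131), lost its call without PEG replicate 2 (-0.33) or PEG replicate 3 (-0.39). IER2 (0.33, adjusted p = 0.0634) passed with the replicate block (adjusted p = 0.0185) and without PEG replicate 1 (0.43). With the block 8 of 10 were called, beside a background of 68.1%.

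The PEG values depend on scaling more than the others. With library size alone in place of TMM, the median of all genes was -0.35 for PEG against input and -0.49 for PEG against mock, and the share of calls that were higher went from 49.5% to 25.3% and from 49.3% to 27.4%. On that scale JUNB, IER2 and ATF3 turned from higher to lower in PEG against mock, at -0.15, -0.15 and -0.29, whereas ID1 (1.52), HES1 (1.37), IER3 (0.89), JUN (-1.44) and EGR1 (-0.90) kept direction and call. FOSL1 was at 0.09 there and no longer called. Against input, JUN (-0.41) and ATF3 (-0.36) were then called lower with PEG, and the other 6 calls stood.

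In PEG against mock, members with a greater exon length tended to have lower fold changes. Exon length here covers all annotated exons of a gene and can exceed that of 1 transcript. For ATF3 it was 4040 bases, against 2033 bases in its main coding transcript. The 5 called higher after TMM scaling are the 5 with the shortest exon length, from 1233 bases (ID1) to 2062 bases (HES1), while the other 5 have 3072 bases (IER2) or more. IER2, at 0.33, was no lower than JUNB at 0.32 and passed with the replicate block, and within the 5 the order of the differences was not that of length, HES1 being above IER3. Spearman's rho between exon length and the log2 fold change was -0.794 over the 10 mRNAs and -0.479 over all 16612 genes, which share the same 6 libraries. For mock against input the values were 0.394 and 0.183. With GC content in place of length, rho in mock against input was 0.285 over the 10 mRNAs and 0.407 over all genes, and in PEG against mock 0.152 and 0.00285. With an offset for GC content and length, ID1 (1.28), HES1 (1.15) and IER3 (0.67) were smaller and still called higher in PEG against mock, and FOSL1 (0.01) and JUNB (-0.17) were not called. With that offset ID1 (0.61), IER3 (0.67), IER2 (0.47) and HES1 (0.85) were also smaller in PEG against input and still called, JUNB (0.18) was not called and FOSL1 (-0.69, adjusted p = 0.00132, edgeR) was called lower.

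**Figure D3:**
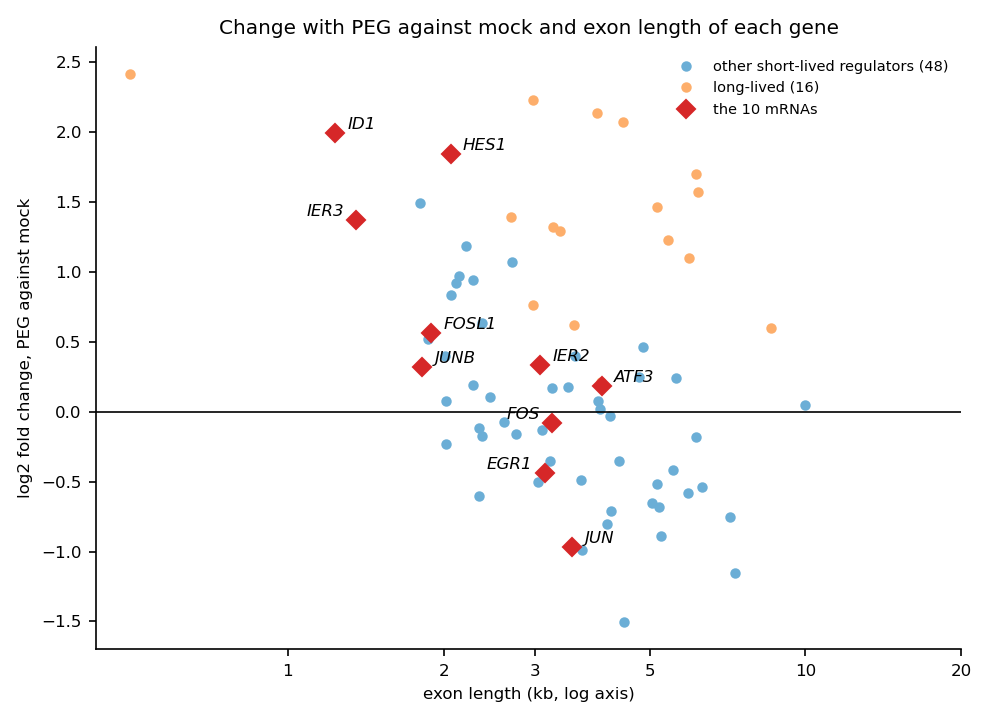
Log2 fold change of PEG against mock (vertical axis) by exon length in kb (horizontal log axis) for the 10 mRNAs (diamonds, named), 48 other short-lived regulators and 16 long-lived mRNAs. ID1, HES1 and IER3 have short exon lengths and are high, and JUN has a longer one and is low. Most long-lived mRNAs are high whatever their exon length. Exon length covers all annotated exons of a gene and can exceed the length of its mRNA. The spread of the long-lived mRNAs along this axis is therefore not one of mRNA length.

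A list of 52 other immediate early and short-lived regulators, of which 48 were tested, was set beside the 10. KLF4, EGR3, DUSP4 and DUSP6 did not pass the filter on counts. In mock against input 16 of the 48 were higher and 3 lower (edgeR; 17.6% and 15.8% of all genes), with a median log2 fold change of 0.28 against 0.00 for all genes. With dsRNA 19 were higher and 4 lower (all genes 21.1% and 19.6%), at a median of 0.45. With silvestrol 18 were higher and 4 lower (all genes 19.4% and 18.1%), at a median of 0.35. With PEG 13 were higher and 9 lower against input, near the shares of all genes (25.5% and 25.9%), at a median of 0.13. In PEG against mock 9 were higher and 13 lower (all genes 31.3% and 32.2%), at a median of -0.10, and none was called between mock, dsRNA and silvestrol pellets. NR4A1, an orphan nuclear receptor, was higher in mock by a log2 fold change of 0.97 (SE 0.17, adjusted p = 0.00673, edgeR), and SPRY2, a brake on receptor tyrosine kinase signalling, also by 0.97 (SE 0.292, adjusted p = 0.0378). KLF10, a transcriptional repressor induced by TGF-beta, was lower by -0.69 (SE 0.0977, adjusted p = 0.00403), and ZFP36L1, a protein that binds AU-rich elements and promotes decay, was lower by -0.36 (SE 0.108, adjusted p = 0.0376). By the same rule on level and size, the same 4 genes were named with dsRNA and with silvestrol. With PEG against input, GADD45B (1.58) and SERTAD1 (1.52) rose most, and ZFP36L1 and ZFP36L2 (both -0.94) fell most. In PEG against mock, ID3 (1.49) and ID2 (1.18), of the same family as ID1, rose most, while ID4 of that family was at -0.12, and MAFK (-1.50) and NR4A1 (-1.16) fell most.

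A list of long-lived housekeeping mRNAs was set beside these for contrast, chosen with earlier results of these data known. The paper already gives GAPDH, which is on it, among shorter transcripts less enriched than longer ones. The contrast is thus a description and no test of mRNA stability. These 16 mRNAs, mostly of glycolytic enzymes, actins, tubulins and elongation factors, were lower in the pellets without PEG. In mock against input 0 were higher and 10 lower, where 17.6% and 15.8% of all genes were, at a median of -0.68 on the log2 scale. With dsRNA 13 were lower (19.6% of all genes) and with silvestrol 11 (18.1% of all genes), and none was higher in either (medians -0.77 and -0.76). With PEG 10 were higher and 0 lower against input (25.5% and 25.9% of all genes, median 0.58), and 15 of 16 were higher against mock (31.3% of all genes, median 1.36). The 10 mRNAs thus had a median in mock (-0.04) between that of the other short-lived regulators and that of the long-lived mRNAs. The pentamer ATTTA was present in 95.8% of the 48 other short-lived regulators and in 62.5% of the 16 long-lived mRNAs. Their median 3′ UTR lengths were 1248 and 549 bases. Among those with a 3′ UTR of 400 to 1300 bases, the shares were 91.7% of 24 and 71.4% of 7. The lists also differ in median exon length, which covers all annotated exons of a gene and so does not rank them by mRNA length. It was 2.57 kb for the 10 mRNAs, 3.54 kb for the other short-lived regulators and 3.99 kb for the long-lived mRNAs. Median GC content was 57.2%, 52.8% and 54.1% in the same order. The part of length, GC content and level in these differences was not tested.

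**Figure D4:**
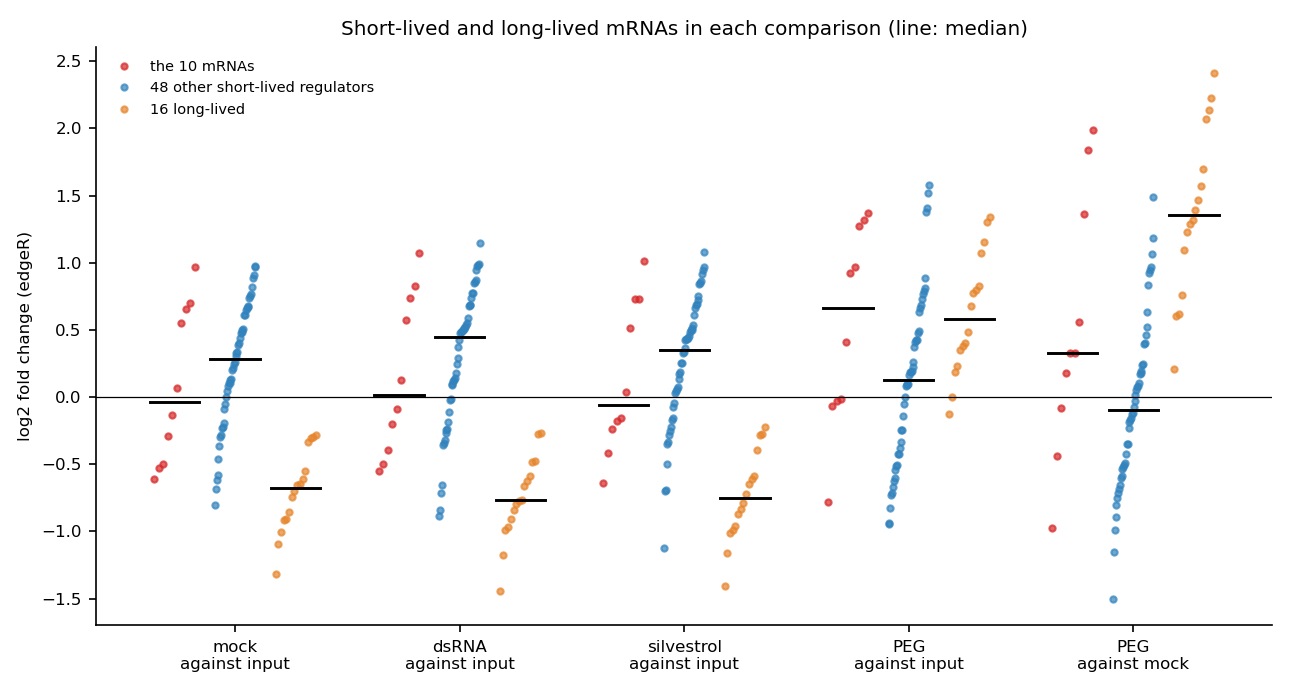
Log2 fold change (vertical axis, edgeR) of the 10 mRNAs, the 48 other short-lived regulators and the 16 long-lived mRNAs in 5 comparisons; points are genes in rising order and lines are medians. In mock, dsRNA and silvestrol against input the medians of the short-lived lists lie from -0.06 to 0.45 and those of the long-lived list from -0.68 to -0.77, and in PEG against mock the long-lived list has a median of 1.36.

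Over the 15 libraries, JUNB and IER2 followed each other (Pearson r = 0.964 of log2 CPM), as did HES1 and ID1 (r = 0.96), while JUN and FOSL1 ran opposite (r = -0.902). These values are descriptions, since the libraries form 5 groups. In a search of the 10925 genes whose log2 CPM averaged 3 or more, the gene most like ID1 was MRPL24 (r = 0.997), that most like IER3 was POLD4 (r = 0.993) and that most like HES1 was ZNRD2 (r = 0.987). For JUN it was AP3D1, for JUNB HYAL2 and for IER2 B3GAT3 (r = 0.985 each), for FOSL1 KXD1 (r = 0.952) and for EGR1 ZNF347 (r = 0.932). ATF3 and FOS had no close match, the highest being MAPRE3 (r = 0.779) and ZNF875 (r = 0.756).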

How the data were processed

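The authors deposited, for each library, raw read counts per gene without normalisation. Per the labels, the submitters' processing notes name Trimmomatic 0.36, STAR 2.5.2b, featureCounts of Subread 1.5.2 and GRCh38. The strand setting is not given in the sources used here, so reads of overlapping and antisense genes cannot be told apart. Of 57500 identifiers, 56898 were found in GENCODE release 29 (GRCh38), from which GC content and 3′ UTRs were taken. Symbols were taken from a separate list of gene names.

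Genes were kept as the study's methods describe, by a minimum of 10 counts. Each comparison was fitted on its 6 libraries with edgeR 4.0.16 in R 4.3.3 (TMM, quasi-likelihood F test, prior count 2), with the Benjamini-Hochberg adjustment over 16612 genes. The study used DESeq2, which was an alternative here (1.42.0). CPM values use TMM factors over all 15 libraries and, per kilobase, the exon length in the files, which covers all annotated exons of a gene. CPM are relative within a library, so less of one mRNA and more of the others look alike. Scripts were tested on simulated data. Figures were drawn with matplotlib 3.10.9.

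The replicate numbers come from the labels. Deviations from group means correlated at 0.131 to 0.861 in all 30 same-numbered pairs of libraries and at -0.746 to 0.583 in the 60 others. The fits behind the main calls did not pair libraries of the same number. Pairing entered only through the fits with the replicate block, which were alternatives. Other alternatives were other scalings and filters, 1 fit of all 5 groups, GC and length offsets (span 0.3), thinning and each library left out in turn. The members, lists and tests were chosen with earlier results of these data known. All 10 members are named. Of the other short-lived regulators, the 2 largest rises and 2 largest falls per comparison are named, at an average log2 CPM of at least 3 among those called, and the most alike gene of each member among genes at that level.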

Additional observations from a re-analysis of the deposited data

How the results depend on the processing

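In all, 53 fold changes of the 10 mRNAs, those of the 5 comparisons with calls and HES1 in the other 3, were recomputed under 17 alternatives. Of 901 values, 800 kept direction and side of the threshold, 41 lost the call, 38 gained it and 22 changed sign. Among the 30 called fold changes 2 values changed sign, both of JUNB. The number of the 10 mRNAs called ranged, with each library left out in turn, from 3 to 7 for mock against input (3 without mock replicate 3) and from 3 to 6 for dsRNA against input (3 without input replicate 3, dsRNA replicate 2 or dsRNA replicate 3). The share of all genes called in these fits was not counted, so the numbers are not read as a result about the 10 mRNAs. With the replicate block 1 was called in silvestrol against mock and 1 in dsRNA against silvestrol, HES1 in both, and the same with the replicate block and the GC offset, while the fit of all 5 groups with the block called neither. In the 6-library fits without offsets, the block changed no call besides those given with the results. With the GC offset or in the fit of all 5 groups it changed others, such as EGR1 in silvestrol against input in the 5-group fit (adjusted p from 0.106 to 0.0409, edgeR) and FOSL1 in PEG against input with the GC offset (from 0.0552 to 0.0451).

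Signs changed as follows. In PEG against mock with library size only, ATF3 was at -0.29 (adjusted p = 0.0359, edgeR), IER2 at -0.15 and JUNB at -0.15, and JUNB was at -0.17 with the GC and length offset. HES1 in silvestrol against input was at 0.12 with the GC and length offset. IER3 against input was at -0.15 (mock), -0.14 (dsRNA) and -0.21 (silvestrol) with the GC offset, and at -0.14, -0.13 and -0.20 with the replicate block added. Leaving out 1 library at a time gave ranges across 0 for ATF3 in PEG against input (-0.10 to 0.01) and dsRNA against input (-0.15 to 0.02), FOS in PEG against mock (-0.27 to 0.29), FOSL1 in PEG against input (-0.13 to 0.04), IER3 in mock (-0.15 to 0.19), dsRNA (-0.07 to 0.27) and silvestrol (-0.17 to 0.17) against input, and JUN in PEG against input (-0.15 to 0.01). The cause was not tested. Of 50 mean levels, 21 moved by over 1 SD with library size only, 9 of them with PEG. The coefficient of variation within a group ranged from 1.65% (HES1 in mock) to 40.2% (FOS in mock), so counting error can limit the steadiest values and the spread between replicates limits those of FOS and IER3. The exact permutation p for 3 against 3 libraries cannot go below 0.1, so no single-gene permutation p is given.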

Other observations

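JUN, JUNB and IER2, the 3 of the 10 mRNAs called higher in mock, dsRNA and silvestrol pellets against input, are also the 3 whose main coding transcript in GENCODE release 29 (APPRIS principal, then longest) has 1 exon. This was noticed after their values were seen. Of 307 tested coding genes with 1 exon, 28.3% were called higher in mock against input (edgeR), 34.5% with dsRNA and 32.9% with silvestrol. Of 13023 coding genes with 2 or more exons, 18.3%, 21.9% and 20.3% were called higher. The shares called lower were 7.82%, 9.12% and 8.79% of genes with 1 exon, and 18.1%, 22.5% and 20.7% of the others. The median exon length was 2.69 kb for genes with 1 exon and 5.14 kb for the others. JUNB (64.9%) and IER2 (61.7%) also have the highest GC content of the 10. With the GC offset in mock against input, JUN (0.80) kept its call and JUNB (0.21) and IER2 (0.28) did not. All 3 passed with the GC and length offset. The part of length and GC content in these shares was not tested. In PEG against mock the shares called higher were 28.0% and 31.5%.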
